A study of Mus musculus with 6 samples.

Results

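The transcripts of 10 fibroblast growth factor (FGF) genes were examined in cultured mouse fibroblasts with and without the mitochondrial protease YME1L. The genes were the ligands Fgf1, Fgf2, Fgf5, Fgf7, Fgf10 and Fgf18 and the receptors Fgfr1, Fgfr2, Fgfr3 and Fgfr4, found by symbol among 51499 loci of the deposited count table. Each of the 10 symbols was found at 1 locus, and 7 of the 10 loci had enough fragments to be among the 13867 loci tested. The cells were immortalized mouse embryonic fibroblasts (MEFs, transformed with SV40) from mice with loxP sites in both alleles of Yme1l. The wild-type (WT) cells carried the genotype Yme1l fl/fl, and the Yme1l-/- cells were obtained from such cells with Cre recombinase. Cells were grown up as individual clones, so a difference between clones and the effect of the deletion cannot be told apart in these data. Poly(A) RNA of 3 cultures per genotype was sequenced, without any treatment named in the labels. The labels number the cultures but do not say how they were separated, so the p-values measure the spread between these samples only.

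FGFs are secreted proteins that bind heparan sulfate and activate receptor tyrosine kinases at the cell surface. The activated receptor phosphorylates the adaptor FRS2, which recruits GRB2 and SOS and starts the RAS, RAF, MEK and ERK cascade. ERK signalling induces transcription factors such as ETV4 and ETV5 and also its own inhibitors, the Sprouty proteins and dual-specificity phosphatases. In developing organs, FGF7 and FGF10 are made by mesenchymal cells and act on a splice form of FGFR2 in neighbouring epithelium, while fibroblasts themselves grow in response to FGF2 through FGFR1. Counts per locus hold no information on receptor splice forms.

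The libraries held between 33180867 and 49351107 counted fragments. Yme1l1, the targeted gene, fell from 188.7 ± 5.16 CPM to 39.1 ± 1.34 CPM (SD, n = 3), where CPM are counts per 1e+06 fragments of the scaled library size. Libraries of a genotype correlated more closely with each other (Pearson r of log2 CPM across loci 0.992 to 0.996) than with those of the other genotype (0.909 to 0.912). The genotypes differed at most loci, since 67.7% of the tested loci were called by the quasi-likelihood test of edgeR (adjusted p under 0.05) and the libraries did not overlap for 71.9%. Medians of the log2 fold change by chromosome ranged from -0.44 to 0.59. Of 14 fibroblast markers 12 were tested, 1 rose and 10 fell (all tested loci: 33.6% higher and 34.1% lower), and the summed level of the 14 was 11853 to 12481 CPM in WT and 7241 to 7775 CPM in Yme1l-/- libraries. Col1a1, a fibrillar collagen gene, lay at 1616 CPM in WT and 2177 CPM in Yme1l-/-, whereas Thy1 and Lum were at or under 0.142 CPM in both genotypes. Col3a1 and Dcn fell, but WT replicate 2 stood apart in both, with 9860 against 2858 and 2974 fragments of Col3a1 and 257 against 52 and 51 of Dcn. Without that library the log2 fold changes were -1.63 and -1.47, and both were called. Both calls were lost without Yme1l-/- replicate 1, 2 or 3 (log2 fold change -2.50, -2.48 and -2.44 for Col3a1, and -2.83, -2.58 and -2.67 for Dcn). With chromosome medians removed Col1a1 was at 0.07 and not called.

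The members that were higher in Yme1l-/- cells were Fgf7, Fgf10 and Fgfr3, and the sequence just before the transcript start of each is shown because their transcripts rose in the same cells. The sequences are from RefSeq (GRCm38.p6), and each is 250 bases long on the plus strand, ending at the base before the start. Promoters of 8 of the 10 members were examined. Capitals mark the SP1 box (GGGCGG, or CCGCCC on the other strand) and the CCAAT box (ATTGG on the other strand), and no other letters are marked. The windows are chr2:126034408-126034657 for Fgf7, chr13:118714449-118714698 for Fgf10 and chr5:33721474-33721723 for Fgfr3.
Fgf7: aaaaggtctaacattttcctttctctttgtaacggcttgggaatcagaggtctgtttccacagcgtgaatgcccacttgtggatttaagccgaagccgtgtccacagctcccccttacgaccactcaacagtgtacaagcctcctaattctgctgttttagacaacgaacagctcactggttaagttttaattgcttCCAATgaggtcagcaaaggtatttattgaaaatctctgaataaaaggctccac
Fgf10: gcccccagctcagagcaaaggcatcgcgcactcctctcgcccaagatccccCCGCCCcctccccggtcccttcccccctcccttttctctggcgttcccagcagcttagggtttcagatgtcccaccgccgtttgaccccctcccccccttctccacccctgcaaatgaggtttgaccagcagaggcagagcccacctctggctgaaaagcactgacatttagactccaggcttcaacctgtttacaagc
Fgfr3: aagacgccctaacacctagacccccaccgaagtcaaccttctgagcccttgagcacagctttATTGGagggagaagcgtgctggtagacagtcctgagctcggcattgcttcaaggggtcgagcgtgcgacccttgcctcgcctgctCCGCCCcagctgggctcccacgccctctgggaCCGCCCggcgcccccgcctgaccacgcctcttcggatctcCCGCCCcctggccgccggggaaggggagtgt

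The Fgf7 window had a GC content of 43.6%, a CCAAT box and no SP1 box. The Fgf10 window had a GC content of 61.2% and a single SP1 box, and the Fgfr3 window had 66.8%, with 3 SP1 boxes and a CCAAT box. The median over 32851 promoters of the same length was 52.4%. A match on either strand to the SP1 box was present in 7 of 9 member promoters (Fgfr3 has a pair of starts in the table), against 32.7% of all promoters. A CCAAT box was present in 2 of 9 against 33.8%. The TATA box (TATAAA), the AP-1 site (TGANTCA), the cyclic AMP response element (TGACGTCA), the core of the interferon-stimulated response element and the ATF4 site (TGATGNAA) were each present in 0 of 9, against 12.4%, 6.75%, 1.55%, 2.98% and 3.45% of all promoters. The 7 motifs do not contain one another, and these matches describe letters in the windows, not sites in use.

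All 7 tested loci that hold a member differed between the genotypes by the edgeR test. In Yme1l-/- cells 3 of the 7 loci were higher and 4 were lower, where 33.6% of all tested loci were higher and 34.1% lower. The loci of Fgf2 and Fgfr2 also hold Bbs12 and Ctbp2, so their calls are not those of the member alone. The ligands Fgf7 and Fgf10 and the receptor Fgfr3 rose, while the Fgf2 locus, Fgf5, Fgfr1 and the Fgfr2 locus fell. Of the 7, 6 changed by at least 2-fold, as did 17.7% of all tested loci, and Fgf10 and Fgfr3 changed by at least 4-fold, as did 8.39%. Fgf5 passed the filter on low counts only through its level in WT cells, so a difference was built into its selection, while the other 6 passed in all libraries of both genotypes. The libraries did not overlap for any of the 7, nor for 71.9% of all tested loci. In bulk RNA, fewer cells that express a gene and less RNA per cell cannot be told apart.

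**Figure D1:**
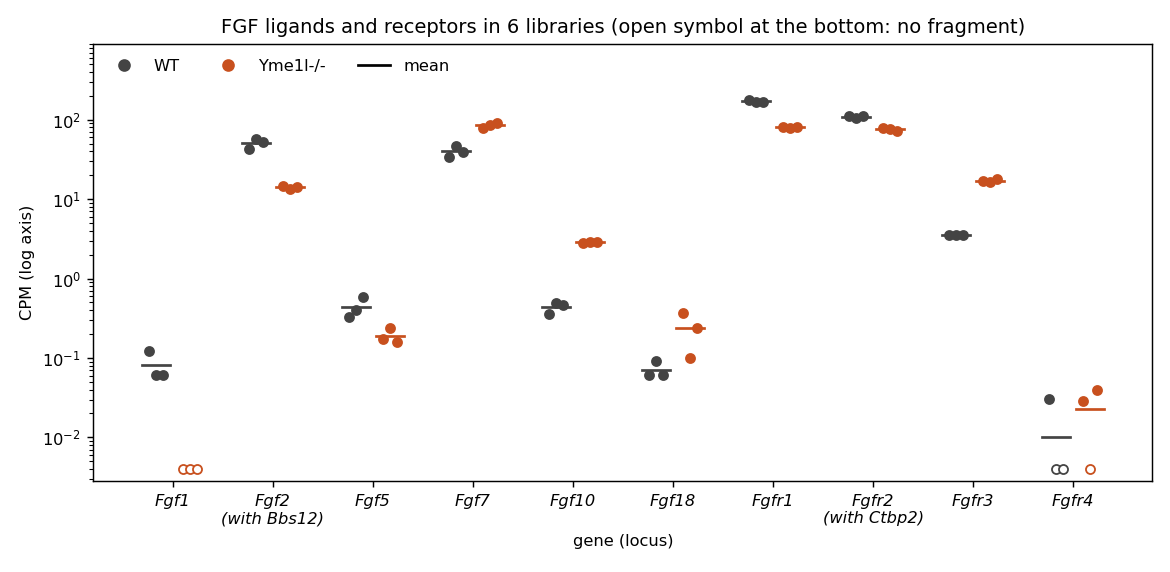
CPM (log axis) of the 10 FGF genes in each of the 3 WT and 3 Yme1l-/- libraries, with points for libraries and a bar for the mean of each genotype. Fgf7, Fgf10 and Fgfr3 sit higher in all Yme1l-/- libraries, while the Fgf2 locus, Fgf5, Fgfr1 and the Fgfr2 locus sit lower. Open symbols at the bottom mark libraries with no fragment, as for Fgf1 in Yme1l-/-.

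Among the ligands, Fgf7 was the most abundant per transcript length. FGF7, also known as keratinocyte growth factor, is a mesenchymal growth factor for epithelial cells. The gene (chr2:126034658-126091185 in GRCm38.p6) had 1138, 1522 and 1264 fragments in WT libraries 1 to 3 and 2766, 4297 and 4634 in Yme1l-/- libraries 1 to 3. This was 34.4, 46.5 and 38.7 CPM in WT against 79.0, 85.2 and 90.95 CPM in Yme1l-/-. The lowest Yme1l-/- library therefore lay well above the highest WT library. The mean rose from 39.9 ± 6.14 to 85.1 ± 5.96 CPM (SD, n = 3), 2.13-fold (log2 fold change 1.09 ± 0.10, SE, edgeR adjusted p 1.7e-05).

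Fgf10 encodes the closest relative of FGF7 and is needed for lung and limb budding. Its locus (chr13:118714699-118792573) had 12, 16 and 15 fragments in WT and 99, 146 and 147 in Yme1l-/-. The 3 Yme1l-/- libraries were close to each other, at 2.83, 2.90 and 2.89 CPM, against 0.363, 0.489 and 0.459 CPM in WT. From 0.437 ± 0.0660 to 2.87 ± 0.036 CPM (SD, n = 3), the level rose 6.57-fold (log2 fold change 2.71 ± 0.19, SE, edgeR adjusted p 2.8e-07). Fgf10 had the largest fold change of the 7 tested members, and 5.84% of all tested loci had a larger change in either direction.

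Fgf7 stayed far more abundant than Fgf10. There were 91.4 ± 6.19 Fgf7 fragments per Fgf10 fragment in WT and 29.6 ± 1.80 in Yme1l-/- (SD, n = 3). On the authors' FPKM scale (fragments per kilobase scaled to library size, a pooled value per genotype that allows comparison between genes), Fgf7 was at 22.01 in WT and 46.4 in Yme1l-/-, and Fgf10 at 0.133 and 0.705.

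Fgf2, or basic FGF, is the mitogen most used for culturing fibroblasts. Its counts come from a locus in which the authors merged Bbs12, a gene for a Bardet-Biedl syndrome protein, with Fgf2 (chr3:37348477-37410106), and they cannot be divided between both genes. The locus had 1428, 1858 and 1707 fragments in WT and 507, 678 and 728 in Yme1l-/-, that is 43.1, 56.8 and 52.3 CPM against 14.5, 13.4 and 14.3 CPM. All Yme1l-/- libraries lay far below all WT libraries and varied less among themselves. The mean fell from 50.7 ± 6.94 to 14.1 ± 0.553 CPM (SD, n = 3), to 27.7% of WT (log2 fold change -1.85 ± 0.09, SE, edgeR adjusted p 3.2e-08). Fgf2os, an antisense transcript at Fgf2 with its own locus, had 4, 3 and 6 fragments in WT and 0 in each Yme1l-/- library, and was not tested. The libraries were made with a stranded kit, and how the counting used the strand is not given in the sources used here.

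The order of the Fgf7 gene and the Fgf2 locus in fragments differed between the genotypes. Fgf7 had 0.786 ± 0.0406 fragments per fragment of the Fgf2 locus in WT and 6.05 ± 0.517 in Yme1l-/- (SD, n = 3). In the authors' pooled FPKM, which accounts for length, the Fgf2 locus was at 13.9 in WT and 5.57 in Yme1l-/-, so Fgf7 was above it in both.

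Fgf5, known as a regulator of the hair growth cycle, was expressed at a low level. It had 11, 13 and 19 fragments in WT and 6, 12 and 8 in Yme1l-/-, and in CPM the highest Yme1l-/- library (0.238) lay below the lowest WT library (0.332). The log2 fold change of Fgf5 (chr5:98254184-98277033) was -1.19 ± 0.38 (SE) and passed the threshold at an edgeR adjusted p of 0.017. The call was lost with DESeq2 (adjusted p 0.063), without WT replicate 3 (-0.93, edgeR adjusted p 0.092) and without Yme1l-/- replicate 3 (-1.05, edgeR adjusted p 0.061).

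The remaining ligands of the set were near the limit of detection. Fgf1, or acidic FGF, which binds all FGF receptors, had 4, 2 and 2 fragments in WT and 0 in every Yme1l-/- library (chr18:38838672-38929470). A count of 0 allows up to 0.0857 CPM in the shallowest Yme1l-/- library, counting error only. Fgf18, a growth factor for cartilage and bone, had 2, 3 and 2 fragments in WT and 13, 5 and 12 in Yme1l-/- (chr11:33116970-33147400). The Yme1l-/- level was 3.10 times the WT level over 30 and 7 fragments in all, with an exact 95% interval of 1.33 to 8.35 that covers counting error only. The WT libraries held at most 3 fragments each, so this ratio is uncertain in size. Neither gene passed the filter on low counts.

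The receptors went in opposite directions. Fgfr1 encodes the receptor through which fibroblasts respond to FGF2. It had 5874, 5544 and 5402 fragments in WT and 2840, 3933 and 4157 in Yme1l-/-, or 177.5, 169.3 and 165.4 CPM against 81.2, 78.0 and 81.6 CPM. The genotypes were well separated and each was tight. The mean fell from 170.7 ± 6.13 to 80.2 ± 1.96 CPM (SD, n = 3), to 47.0% of WT (log2 fold change -1.09 ± 0.05, SE, edgeR adjusted p 4.5e-09). Fgfr1 (chr8:25518759-25575718) lies on a chromosome whose tested loci had a median log2 fold change of -0.32. With chromosome medians removed, its log2 fold change was -0.77.

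Fgfr3 encodes a receptor best known for restraining the growth of cartilage. The gene (chr5:33721724-33737068) had 117, 116 and 115 fragments in WT and 597, 828 and 916 in Yme1l-/-. In CPM these were 3.53, 3.54 and 3.52 in WT and 17.1, 16.4 and 18.0 in Yme1l-/-, so that the libraries of a genotype were nearly alike and the genotypes far apart. The mean rose 4.85-fold, from 3.53 ± 0.0107 to 17.2 ± 0.783 CPM (SD, n = 3) (log2 fold change 2.28 ± 0.09, SE, edgeR adjusted p 2.1e-09). A larger change in either direction was found for 7.20% of all tested loci. The pseudogene Fgfr3-ps had 1 fragment in all 6 libraries together.

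Since Fgfr1 fell and Fgfr3 rose, their ratio necessarily changed by more than either alone. There were 50.2, 47.8 and 47.0 Fgfr1 fragments per Fgfr3 fragment in WT libraries 1 to 3, against 4.76, 4.75 and 4.54 in Yme1l-/- libraries 1 to 3. The ratio does not depend on library size, and it was 48.3 ± 1.68 in WT and 4.68 ± 0.124 in Yme1l-/- (SD, n = 3). In the authors' pooled FPKM, Fgfr1 was at 50.03 in WT and 23.7 in Yme1l-/-, and Fgfr3 at 1.33 and 6.41, so Fgfr1 remained the more abundant per length. The merged locus that holds Fgfr2 was above Fgfr1 on this scale, at 53.2 in WT and 32.9 in Yme1l-/-.

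Fgfr2 encodes the receptor whose splice forms bind FGF7 and FGF10 or FGF2. Its counts were merged by the authors with those of Ctbp2, which encodes a transcriptional corepressor, so the level of Fgfr2 itself cannot be read from them. The merged locus had 3682, 3430 and 3663 fragments in WT and 2767, 3813 and 3708 in Yme1l-/-. In CPM the WT libraries were at 111.2, 104.8 and 112.2 and the Yme1l-/- libraries at 79.1, 75.6 and 72.8, without overlap. The mean went from 109.4 ± 4.03 to 75.8 ± 3.15 CPM (SD, n = 3) (log2 fold change -0.53 ± 0.05, SE, edgeR adjusted p 2.7e-06). This was the smallest change of the 7, and 37.8% of all tested loci had a larger one. Fgfr2 lies at chr7:130162451-130266808.

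Fgfr4, a receptor known from liver and muscle precursors, was barely detected (chr13:55152818-55168759). It had 1, 0 and 0 fragments in WT and 1, 0 and 2 in Yme1l-/-. Both genotypes were under 3 fragments per library, so no fold is given.

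**Figure D2:**
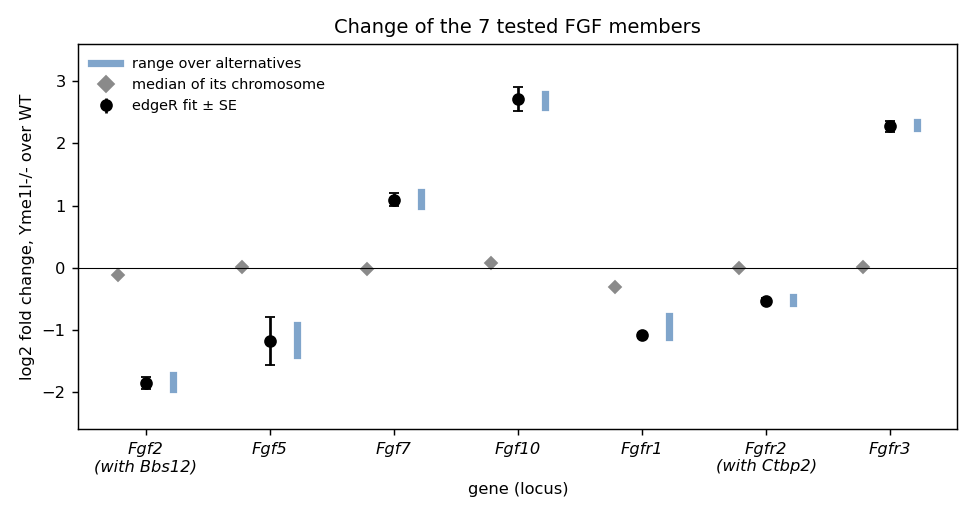
Log2 fold change (Yme1l-/- over WT) of the 7 tested FGF members, with bars for SE and n = 3 cultures per genotype. Fgf10 (2.71), Fgfr3 (2.28) and Fgf7 (1.09) lie above 0, and the Fgf2 locus (-1.85), Fgf5 (-1.19), Fgfr1 (-1.09) and the Fgfr2 locus (-0.53) lie below it.

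Of the 14 tested loci next to the members, 5 were called in the direction of their member, namely Dtwd1, Mrps30, Nnt, Antxr2 and Gm5903, a share near that of all tested loci called in a given direction (33.6% higher, 34.1% lower). Tacc3, which encodes a spindle protein and lies next to Fgfr3, had a log2 fold change of -0.35 ± 0.04 (SE), and Letm1, which encodes a mitochondrial inner membrane protein on the other side, had -0.02 ± 0.05 and was not called. Beside Fgfr1, Tacc1 was at 0.17 ± 0.05 and Letm2 at 0.13 ± 0.15, the latter not called, in the opposite direction to Fgfr1. The neighbours of Fgf7 were Galk2 (-0.18 ± 0.08, not called, but called without Yme1l-/- replicate 3 at -0.26) and Dtwd1 (0.28 ± 0.08). The tested neighbours of the Fgf2 locus, Cetn4 (0.43 ± 0.21) and Nudt6 (-0.13 ± 0.18), were not called, although Cetn4 was called at 0.66 without WT replicate 2.

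Fgf10 and Fgf5 lie in wider gaps. The neighbours of Fgf10 on both sides rose as well, Mrps30, a mitochondrial ribosomal protein gene, by 0.74 ± 0.06 and Nnt, the gene of the mitochondrial transhydrogenase, by 0.70 ± 0.05 on the log2 scale. Near Fgf5, Bmp3, a member of the bone morphogenetic protein family, rose by 5.25 ± 0.32 while Antxr2 was at -0.21 ± 0.07. Beside Fgfr2, Wdr11 was at 0.07 ± 0.06 and not called, and Gm5903 at -0.35 ± 0.11. Several of these small differences were no longer called when a library was left out. The calls were lost for Dtwd1 without WT replicate 3 (0.22) or Yme1l-/- replicate 3 (0.24), for Antxr2 without WT replicate 2 or Yme1l-/- replicate 1 (-0.16 in both), for Gm5903 without WT replicate 3 (-0.27) and for Tacc1 without WT replicate 1 (0.12).

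**Figure D3:**
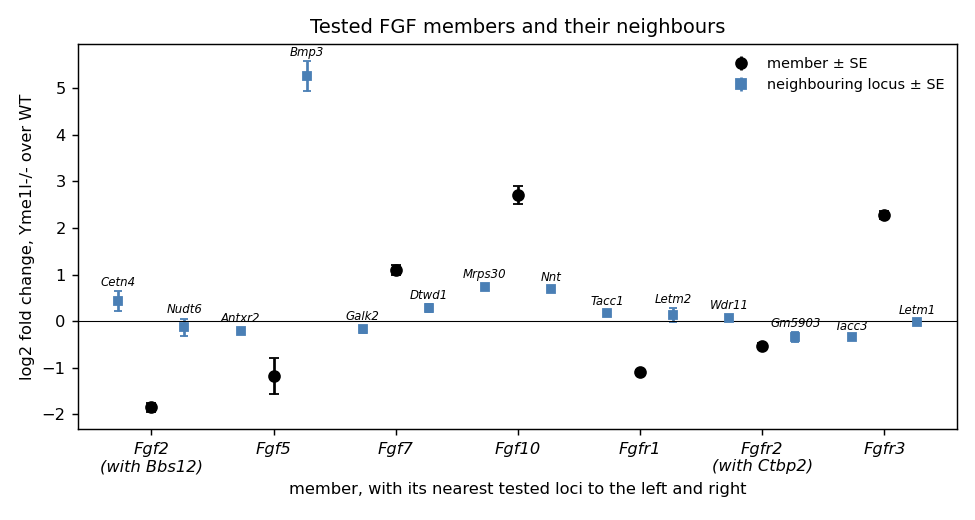
Log2 fold change (Yme1l-/- over WT) of each tested FGF member, with SE bars, beside that of its nearest tested locus on either side. Fgf7, Fgf10 and Fgfr3 lie above their own neighbours, and Bmp3 beside Fgf5 (5.25) is the highest point.

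The other 16 genes of FGF ligands and FGF homologous factors were mostly silent, and only 2 of them were tested. Fgf21, an endocrine ligand that is known to be induced by mitochondrial stress, had 1, 8 and 4 fragments in WT and 19, 22 and 27 in Yme1l-/-. It rose by 1.90 ± 0.48 (log2 fold change ± SE), with an edgeR adjusted p of 0.0046, from 0.132 to 0.503 CPM. Fgf21 passed the filter only through its level in Yme1l-/- cells, so a difference was built into its selection. Fgf11, an intracellular homologous factor, had 42, 44 and 47 fragments in WT and 31, 34 and 46 in Yme1l-/- (log2 fold change -0.72 ± 0.21, SE, edgeR adjusted p 0.01). The Fgf11 call was lost without Yme1l-/- replicate 2 (-0.59). The homologous factors Fgf13 (8, 9 and 16 fragments) and Fgf14 (4, 10 and 11) were counted in WT libraries and had 0 in each Yme1l-/- library, and neither was tested.

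Co-receptors, decoys and carriers of FGFs were 10 genes, of which 8 were tested, 2 rose and 5 fell, with a median log2 fold change of -0.68 (all tested loci: 33.6% higher, 34.1% lower, median -0.0041). Flrt3, a membrane protein that binds FGF receptors and promotes signalling, rose from 72, 111 and 107 fragments to 847, 1235 and 1413 (log2 fold change 3.11 ± 0.14, SE, edgeR adjusted p 8.4e-09). Its relative Flrt2 fell by 1.08 on the log2 scale. Cdh2, which encodes N-cadherin, a partner of FGFR1 at the membrane, rose from 83.1 ± 1.79 to 136.7 ± 9.47 CPM (SD, n = 3). Fgfbp1, a carrier that releases FGFs from the matrix, had 43, 42 and 34 fragments in WT and 2, 2 and 5 in Yme1l-/-. Its log2 fold change was -4.13 ± 0.36 (SE, edgeR adjusted p 1.5e-06). Fgfbp1 passed the filter only through WT, so a difference was built into its selection. Kl and Klb, the co-receptors of endocrine FGFs, were at or under 0.0407 CPM, so the ligand Fgf21 rose in cells with almost no transcript of its co-receptor Klb.

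Of 5 regulators that select receptor splice forms, 4 were tested, 2 were higher and 1 was lower, beside 33.6% and 34.1% of all tested loci. Esrp2, an epithelial splicing factor that favours the epithelial forms of FGFR2, fell from 5.03 ± 0.969 to 0.935 ± 0.232 CPM (SD, n = 3) (log2 fold change -2.40 ± 0.21, SE, edgeR adjusted p 1.3e-06). Ptbp2 was slightly higher, at 0.29 ± 0.05 (SE). Rbfox2 was at 0.24 ± 0.05 (SE) and turned to -0.35 with chromosome medians removed. Some epithelial markers were lower as well. Of 9 such markers 3 were tested and all 3 fell, beside 34.1% of all tested loci, with Krt18 going from 31.9 to 0.0262 CPM, Krt19 from 115.4 to 2.66 and Epcam from 1.29 to 0.0848. Krt18 and Epcam passed the filter only through WT, so their fall was built into their selection. The summed level of the 9 was 142 to 159 CPM in WT and 2.85 to 3.71 CPM in Yme1l-/- libraries, and Cdh1, Krt5, Krt14, Cldn4 and Grhl2 were at most 0.224 CPM in either genotype. Krt8, which encodes the usual partner of keratin 18, was not tested and lay at 0.295 CPM in WT against 0.219 CPM in Yme1l-/-. Their part in the changes of the FGF genes was not tested.

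The relay from the receptor to ERK changed little in size. Of 20 genes, all tested, 6 rose and 10 fell, with a median log2 fold change of -0.13 and none past 2-fold. Over all tested loci 33.6% were higher and 34.1% lower. The highest were Frs3, a docking protein of FGF receptors (0.85 ± 0.11, SE), and the kinase gene Braf (0.67 ± 0.08, SE). The lowest were the adaptor gene Gab2 (-0.92 ± 0.08, SE) and Nras (-0.62 ± 0.04, SE).

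Inhibitors of FGF and ERK signalling, some of them known to be induced by ERK, were lower nearly throughout. Whether ERK induces each gene of this list was not tested. Of 13 genes, 12 fell and Il17rd rose, with a median log2 fold change of -1.34, where 34.1% of all tested loci were lower and their median was -0.0041. In all 13 the libraries did not overlap, as for 71.9% of all tested loci. Spry3 and Spry4 passed the filter only through WT, so a difference was built into their selection. Spry4, a Sprouty inhibitor and an established readout of FGF signalling, had 329, 434 and 308 fragments in WT and 10, 16 and 34 in Yme1l-/-. The Yme1l-/- level was 3.89% of WT (log2 fold change -4.63 ± 0.27, SE, edgeR adjusted p 1.9e-07). Spry3 fell by 2.34 on the log2 scale, from 31, 45 and 41 fragments to 5, 12 and 15. Il17rd, also called Sef, inhibits FGF receptor signalling at the membrane, and it rose from 11.1 ± 1.46 to 25.7 ± 0.791 CPM (SD, n = 3) (log2 fold change 1.21 ± 0.09, SE, edgeR adjusted p 4.4e-07).

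Further inhibitors were picked after their values were seen. Spry2 was at 46.1, 46.2 and 40.4 CPM in WT and 10.9, 10.02 and 11.1 CPM in Yme1l-/-. Dusp6, the phosphatase specific for ERK, was at 39.2, 53.0 and 35.2 CPM in WT and 17.9, 15.8 and 16.9 CPM in Yme1l-/-. Dusp5, a nuclear ERK phosphatase, had a log2 fold change of -2.02 ± 0.15 (SE).

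Transcripts that ERK signalling induces were lower as well. Of 10 tested loci, 9 fell and Ier3 was at 0.24 ± 0.09 (SE), with a median log2 fold change of -1.22, where 34.1% of all tested loci were lower. The call of Ier3 (edgeR adjusted p 0.037) was lost in 7 of the 13 alternatives, among them those without WT replicate 1 (0.22), WT replicate 3 (0.15), Yme1l-/- replicate 1 (0.19) and Yme1l-/- replicate 3 (0.27). Etv4, the ETS factor that is a textbook FGF target, had 1225, 1243 and 1157 fragments in WT and 361, 543 and 445 in Yme1l-/-. Its level fell from 36.8 ± 1.28 to 9.94 ± 1.07 CPM (SD, n = 3) (log2 fold change -1.89 ± 0.08, SE, edgeR adjusted p 4.4e-09). Etv5 had 795, 809 and 760 fragments in WT and 319, 425 and 464 in Yme1l-/-, a log2 fold change of -1.43 ± 0.07 (SE). The third factor of this family, Etv1, went from 0.59 to 0.0132 CPM and was not tested. Ccnd1, which encodes cyclin D1 and was picked after its value was seen, was at 222, 219 and 204 CPM in WT and 105, 94.2 and 88.1 CPM in Yme1l-/-. Genes of both lists can respond to ERK from any receptor, so the lists are not particular to FGFs.

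**Figure D4:**
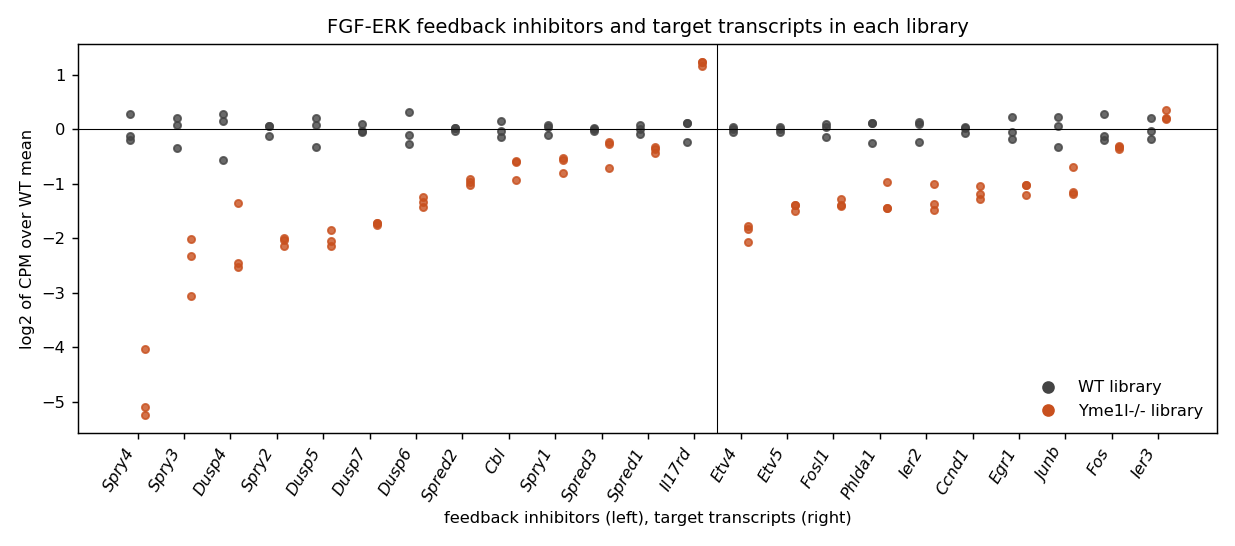
Log2 of CPM over the WT mean in each of 6 libraries for inhibitors of FGF and ERK signalling (left) and target transcripts (right), with a point per library. All 3 Yme1l-/- libraries lie below all 3 WT libraries for 12 of the 13 inhibitors, and Il17rd lies above.

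Heparan sulfate, the sugar chain that FGFs need to bind their receptors, was represented by 19 genes, all tested, of which 3 rose and 12 fell, with a median log2 fold change of -0.51, beside 33.6% higher, 34.1% lower and a median of -0.0041 over all tested loci. Sulf1 passed the filter only through WT and Gpc6 only through Yme1l-/-, so a difference was built into their selection. Sulf1, an extracellular enzyme that trims sulfate groups and dampens FGF signalling, had 3808, 3970 and 3940 fragments in WT and 9, 14 and 21 in Yme1l-/-. The Yme1l-/- level was 0.265% of WT (log2 fold change -8.51 ± 0.10, SE, edgeR adjusted p 4.9e-13). The glypicans, membrane proteins that carry heparan sulfate, went both ways. Gpc6 had 7, 14 and 9 fragments in WT and 1124, 1613 and 1680 in Yme1l-/- (log2 fold change 6.72 ± 0.14, SE, edgeR adjusted p 1.7e-11), and Gpc4 rose from 51.5 ± 1.60 to 119.5 ± 4.75 CPM (SD, n = 3). Gpc1 fell from 165.5 ± 4.37 to 45.2 ± 2.31 CPM (SD, n = 3).

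**Figure D5:**
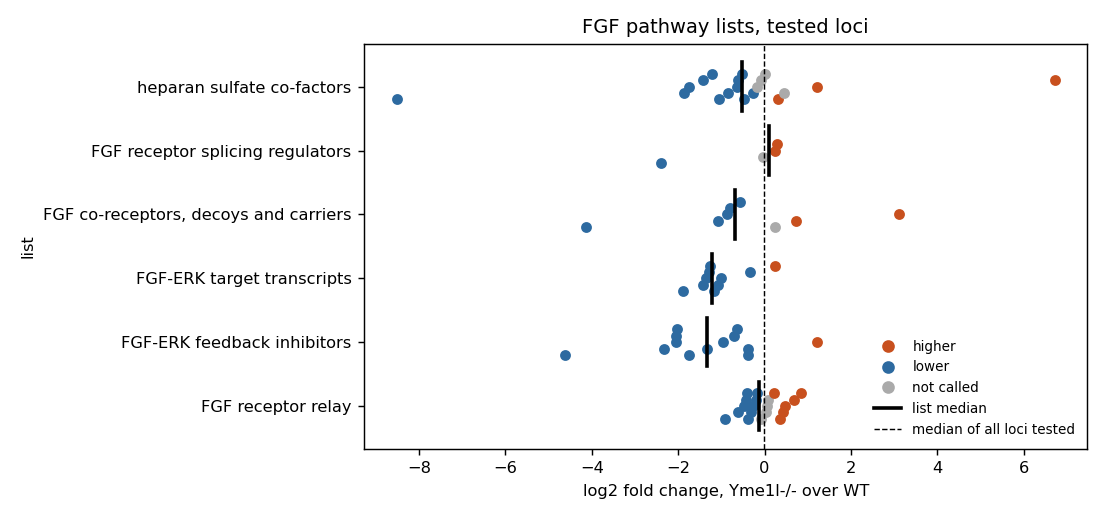
Log2 fold change (Yme1l-/- over WT) of the tested loci of each FGF pathway list, 1 point per locus, with a line at the list median and a dashed line at the median of all tested loci. The medians of the inhibitors of FGF and ERK signalling (-1.34) and of the targets (-1.22) lie lowest, and that of the relay (-0.13) is near the dashed line.

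Endothelial, leukocyte and skeletal muscle markers were mostly near 0, while some neural markers were not. The first 3 lists had 1 tested gene each, all called higher (33.6% of all tested loci were), and their summed levels were at most 4.71 CPM in any library. Kdr was at 0.995 and 1.64 CPM, Cd68 at 1.77 and 3.62 CPM and Des at 0.436 and 2.65 CPM in WT and Yme1l-/-, and the call of Kdr was lost without WT replicate 3 (log2 fold change 0.56) or Yme1l-/- replicate 2 (0.62). Of the pluripotency markers, Nanog was tested and not called. Of 6 neural markers 5 were found in the count table, 3 of these were tested and all 3 fell, beside 34.1% of all tested loci, and the summed level of the 5 was 342 to 354 CPM in WT and 97.6 to 102 CPM in Yme1l-/- libraries. Nes, which encodes the intermediate filament nestin and was picked after its value was seen, was the most abundant and went from 297.7 to 91.9 CPM. Sox2, which the FGF pathway regulates in progenitor cells, had 846, 913 and 660 fragments in WT and 0 in each Yme1l-/- library, and it passed the filter only through WT, so its fall was built into its selection. Map2 went from 24.5 to 7.05 CPM. Their part in the changes of the FGF genes was not tested.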

How the data were processed

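RNA of 6 samples, 3 WT and 3 Yme1l-/- cultures, was sequenced as stranded paired-end poly(A) libraries. According to the submitters' processing notes, reads were processed with HISAT2 2.0.4, StringTie 1.3.3, Cufflinks and Cuffdiff 2.2.1 on GRCm38. The authors deposited raw fragment counts per locus, whole numbers without normalization, and a table with FPKM values pooled per genotype. The fold change, p-value and q-value columns of the authors' own test in that table were not used. The authors merged overlapping transcripts into 635 loci with joined names, 387 of them tested, whose counts cannot be divided. The treatment of fragments with several map positions is not given in the sources used here.

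The deposited counts were tested with edgeR 4.0.16 and limma 3.58.1 under R 4.3.3. Loci passing filterByExpr (minimum count 10) were scaled with TMM and compared with the quasi-likelihood test (robust, two-sided, no covariates, all 6 samples), with Benjamini-Hochberg adjustment over 13867 loci and a call at an adjusted p under 0.05. The script was tested on simulated data in which few loci changed, so that test does not cover data where most loci differ. Every log2 fold change is Yme1l-/- relative to WT, with an SE obtained from the test statistic. The share of all tested loci called in a direction is given beside counts from gene lists, without a test of the list. The floor was 3 fragments in a library, and values up to and including it were treated as at the floor. For Fgf18, with 2 to 3 fragments per WT library, a ratio with an exact interval was given in place of the planned bound against 3 fragments. Intervals and floors cover counting error only, since PCR copies were not identified. Counts of libraries from the same genotype differed beyond sampling noise (chi-square per degree of freedom at least 8.45). Alternatives were RLE and upper-quartile scaling, DESeq2 1.42.0, other filters on low counts, the replicate number as a block, removal of chromosome medians and leaving out each sample in turn. For the pathway lists these alternatives were chosen after seeing the data.

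The members and gene lists were chosen with earlier results of these data known. The lists were written from general knowledge, and from each list the text names the 2 highest and 2 lowest called genes whose mean reached 1 CPM in either genotype, other FGF ligands with at least 10 fragments in a library, the nearest tested loci beside each member, and genes stated as picked after their values were seen. Etv1, Kl, Klb, Fgf2os, Fgfr3-ps, Epcam, Krt8 and the markers near 0 also lie outside that rule. Promoters and gene coordinates are from RefSeq tables (GRCm38.p6). The promoters of Fgf1 and Fgfr1 were not examined, so the counts of member promoters leave both genes out.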

Additional observations from a re-analysis of the deposited data

How the results depend on the processing

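Under the 13 alternatives, 6 of the 7 tested loci that hold a member kept their direction and their call. Their log2 fold changes were 2.59 to 2.79 for Fgf10, 2.25 to 2.34 for Fgfr3 and 0.996 to 1.22 for Fgf7. They were -1.96 to -1.73 for the Fgf2 locus, -1.11 to -0.774 for Fgfr1 and -0.56 to -0.47 for the Fgfr2 locus. Fgf5 was called in 9 of the 12 alternatives that tested it. When every locus with a total of at least 1 count was tested, Fgf1 (adjusted p 0.012) and Fgf18 (adjusted p 0.043, edgeR) were also called. Between 8513 and 10051 loci were called. Upper-quartile scaling moved the share of calls that were higher from 49.6% to 55.1% and shifted the median of the tested loci to 0.055. Over 55 named genes, 706 values were obtained, of which 668 kept direction and call, 30 lost the call, 5 gained it and 3 turned direction. The values that turned were Letm1 at 0.04 under upper-quartile scaling and between -0.057 and 0.0051 when a culture was left out, and Rbfox2 at -0.35 with chromosome medians removed. Of the target transcripts, 0 were called higher with the replicate block, with chromosome medians removed and with every locus of at least 1 count tested, since Ier3 lost its call there, and between 0 and 1 when a culture was left out. Over all alternatives, 8 to 10 target transcripts were called lower (9 as reported), and 6 to 7 relay genes were called higher (6) and 9 to 11 lower (10). The deviations of same-numbered cultures correlated at 0.144, -0.094 and 0.048, and whether the replicate numbers pair the samples was not tested. The fit with the replicate block called 9794 loci, against 9387 in the main fit. All 7 tested loci that hold a member were among them. Depth limits Fgf1, Fgf5, Fgf18 and Fgfr4, which had at most 19 fragments in a library.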
